A study of Rattus norvegicus with 12 samples.

Results

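The 10 genes described here are used to trace T lymphocytes and natural killer (NK) cells: the T cell receptor chains Cd3d, Cd3e and Cd3g, the coreceptors Cd4 and Cd8a, the adhesion receptor Cd2, the granule genes Gzmb, Prf1 and Nkg7, and the NK receptor Klrd1. They were taken by name, and make up 10 of the 17379 genes and single transcripts in the files. Each is covered by 1 RefSeq transcript, and all 10 passed the filter on low counts in both fits described here.

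RNA was sequenced from 12 rat libraries, 3 in each of 4 groups. The labels give male SAS Fischer rats of 200 to 225 g, and no genetic change or drug. Fracture hematoma, the clot and early repair tissue that fills a gap in the bone, was taken from femoral defects of 0.5 mm (called normal, for normal healing), 1.5 mm (delayed, for delayed healing) and 5.0 mm (nonunion). The reference, called preOP, was the piece of healthy femur taken out during the operation on 5.0 mm defects, and so differs from the hematomas in tissue as well as in time. The labels do not give the day of collection, and they do not say whether libraries of a group came from separate animals.

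CD3 chains carry the signal of the T cell receptor into the cell and are the defining transcripts of T cells. CD4 and CD8 bind the MHC molecules that present antigen, and CD8 on cytotoxic T cells is usually a pair of an alpha chain (Cd8a) and a beta chain (Cd8b). In the rat, monocytes and macrophages also carry CD4, and NK cells can carry CD8 alpha chains without beta chains. Perforin (Prf1) opens the membrane of a target cell and granzyme B (Gzmb) enters through it, while NKG7 sits in the membrane of cytotoxic granules and KLRD1 (CD94) pairs with NKG2 receptors on NK cells. After a fracture, T cells and NK cells are among the leukocytes that enter the hematoma from blood and marrow.

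Libraries held 16808984 to 24325144 estimated reads. Library nonunion 2 gave 72.24% of its reads to ribosomal RNA, against at most 1.75% in the other 11, and its values depend on how the library is scaled. Globin genes took 15.66% to 23.98% of reads in preOP and at most 2.96% in the hematomas. The normal files also differ in form, since 16.82% to 18.1% of their read numbers carry a decimal point against 100% in all other files, and this split and the normal group cannot be told apart. All 8 osteoblast marker genes had reads in every group, but their levels differed between the hematomas. Against normal, 6 of the 8 were called lower in delayed and 4 in nonunion (edgeR adjusted p below 0.05). Of all genes tested, 4.45% and 1.48% were called lower. The median log2 differences of the 8 were -6.34 and -5.48. Levels are given as CPM (counts per 1e6 reads after TMM scaling of library sizes) within a gene, and as TPM (transcripts per 1e6, which accounts for transcript length) between genes. The 1e6 of TPM includes ribosomal RNA, which lowers the TPM of all other genes in nonunion 2. Ratios of TPM within that library are not affected.

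Levels of the 3 CD3 chains lay below preOP in the normal hematomas and were uneven in the delayed and nonunion ones, with delayed 1 the highest hematoma. Cd3d, the delta chain, stood at 1.05, 0.735 and 0.541 CPM in normal 1, 2 and 3, at 8.17, 0.412 and 1.73 in delayed, at 0.475, 3.39 and 0.745 in nonunion, and at 3.60, 2.74 and 3.64 in preOP. Cd3e, the epsilon chain, stood at 1.05, 1.29 and 0.766 CPM in normal, at 9.29, 0.567 and 1.85 in delayed, at 1.23, 3.85 and 0.993 in nonunion, and at 5.77, 3.92 and 4.19 in preOP. Cd3g, the gamma chain, stood at 2.66, 1.16 and 1.67 CPM in normal, at 11.6, 0.928 and 2.30 in delayed, at 1.11, 3.54 and 1.36 in nonunion, and at 14.5, 12.1 and 6.53 in preOP. In all 3 genes the 3 normal libraries lay below the 3 preOP libraries, and delayed 1 and delayed 2 were the highest and the lowest of their group. Library delayed 1 held 213 reads of Cd3d and delayed 2 held 8. Library nonunion 2 was the highest of its group in CPM for all 3 chains. On the TPM scale, where ribosomal RNA lowers its other genes, its Cd3d level of 1.75 lay between the 1.67 and 2.40 of nonunion 1 and 3. Its Cd3g level of 2.04 lay below their 4.37 and 4.95. Library delayed 3, at 6.39 TPM of Cd3d, lay within the preOP range of 5.90 to 7.54 TPM on that scale, and below all preOP libraries in CPM.

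The 3 CD3 genes are neighbours in the rat genome, and their levels moved together, so the windows around their start sites are shown. They come from RefSeq on the GRCr8 build, run from 250 bases before to 50 bases after the start, and are written 5′ to 3′ on the strand of the gene. Capitals mark matches on either strand to 4 short motifs. The ETS core was searched as CAGGAA. RUNX sites were searched by their core TGTGGT. The E-box of helix-loop-helix factors was searched as CAGNTG, and the TATA box as TATAAA. The Cd3g window is chr8:54183869-54184168 on the minus strand, the Cd3d window is chr8:54185269-54185568 on the plus strand, and the Cd3e window is chr8:54211721-54212020 on the minus strand.
Cd3g: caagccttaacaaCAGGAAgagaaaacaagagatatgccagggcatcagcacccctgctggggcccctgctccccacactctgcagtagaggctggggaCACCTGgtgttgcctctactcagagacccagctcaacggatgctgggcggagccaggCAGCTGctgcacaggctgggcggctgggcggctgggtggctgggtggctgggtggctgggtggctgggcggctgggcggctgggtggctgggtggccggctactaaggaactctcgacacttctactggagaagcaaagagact
Cd3d: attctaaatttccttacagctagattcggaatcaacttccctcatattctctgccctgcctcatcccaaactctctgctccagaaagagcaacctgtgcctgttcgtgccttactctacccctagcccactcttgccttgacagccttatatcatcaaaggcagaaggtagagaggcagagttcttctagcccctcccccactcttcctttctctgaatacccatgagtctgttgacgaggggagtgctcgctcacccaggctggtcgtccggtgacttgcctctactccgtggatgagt
Cd3e: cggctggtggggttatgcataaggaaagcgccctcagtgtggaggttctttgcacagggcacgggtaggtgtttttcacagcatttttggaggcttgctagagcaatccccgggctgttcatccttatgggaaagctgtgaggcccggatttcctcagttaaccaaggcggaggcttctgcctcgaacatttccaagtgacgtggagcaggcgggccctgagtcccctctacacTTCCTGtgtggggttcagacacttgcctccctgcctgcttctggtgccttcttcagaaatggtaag
The Cd3g window held 1 ETS match and 2 E-box matches, the Cd3e window held 1 ETS match, and the Cd3d window held none of the 4 motifs. No match overlapped another. An ETS match was present in 29.1% of all 33469 RefSeq windows of this length, an E-box in 50.2%, a RUNX match in 17.3% and a TATA match in 14.2%. Windows were found for 8 of the 10 genes, and among these 5 held an ETS match, 4 an E-box, 4 a RUNX match and 1 a TATA match. These are matches of letters, with no measure of binding.

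Delayed against normal sets the clot of a defect slow to heal, 1.5 mm wide, beside the clot of one that heals at 0.5 mm. For Cd3d the difference was 2.14 (log2, SE 1.08, edgeR quasi-likelihood test, adjusted p = 0.25 over all genes), for Cd3e it was 1.92 (SE 0.96, edgeR adjusted p = 0.24) and for Cd3g it was 1.41 (SE 0.90, edgeR adjusted p = 0.35). None passed the threshold, which was an adjusted p below 0.05. Without delayed 1 the values came to 0.48, 0.24 and -0.195, so the direction of Cd3g turned. Without delayed 2 and nonunion 2 together, Cd3d was at 2.735 (edgeR adjusted p = 0.035) and Cd3e at 2.495 (edgeR adjusted p = 0.039), and both passed.

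Nonunion against normal gave 0.81 for Cd3d (SE 1.09), 0.845 for Cd3e (SE 0.96) and -0.002 for Cd3g (SE 0.85), with edgeR adjusted p of 0.72, 0.66 and 0.999. Against preOP the chains parted by group. Cd3g was lower in normal by a log2 difference of -2.59 (SE 0.84, edgeR adjusted p = 0.029) and lower in nonunion by -2.52 (SE 0.85, edgeR adjusted p = 0.047). The normal call was lost without normal 2 (-2.35), normal 3 (-2.42), preOP 1 (-2.25) or preOP 2 (-2.42). It was also lost with limma on log2(TPM + 0.1) (-2.30, adjusted p = 0.073) and log2(TPM + 1) (-2.08, adjusted p = 0.068). The nonunion call was lost without nonunion 1 (-2.13), nonunion 3 (-2.23), preOP 1 (-2.18), preOP 2 (-2.35) or preOP 3 (-2.78), and with the replicate number as a block (-2.35, edgeR adjusted p = 0.061). DESeq2 size factors (-2.42, edgeR adjusted p = 0.056) and leaving out ribosomal RNA and globin genes (-2.35, edgeR adjusted p = 0.058) lost it too. So did limma on log2(TPM + 0.1) (-2.66, adjusted p = 0.058) and log2(TPM + 1) (-2.38, adjusted p = 0.057). Cd3d and Cd3e fell short in normal, with differences of -2.09 (SE 0.97, edgeR adjusted p = 0.10) and -2.16 (SE 0.87, edgeR adjusted p = 0.067). In delayed the 3 chains differed from preOP by 0.05, -0.24 and -1.16, and without delayed 1 by -1.42, -1.73 and -2.58, where Cd3g passed (edgeR adjusted p = 0.026). In bulk tissue, fewer T cells and less RNA per T cell cannot be told apart.

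**Figure D1:**
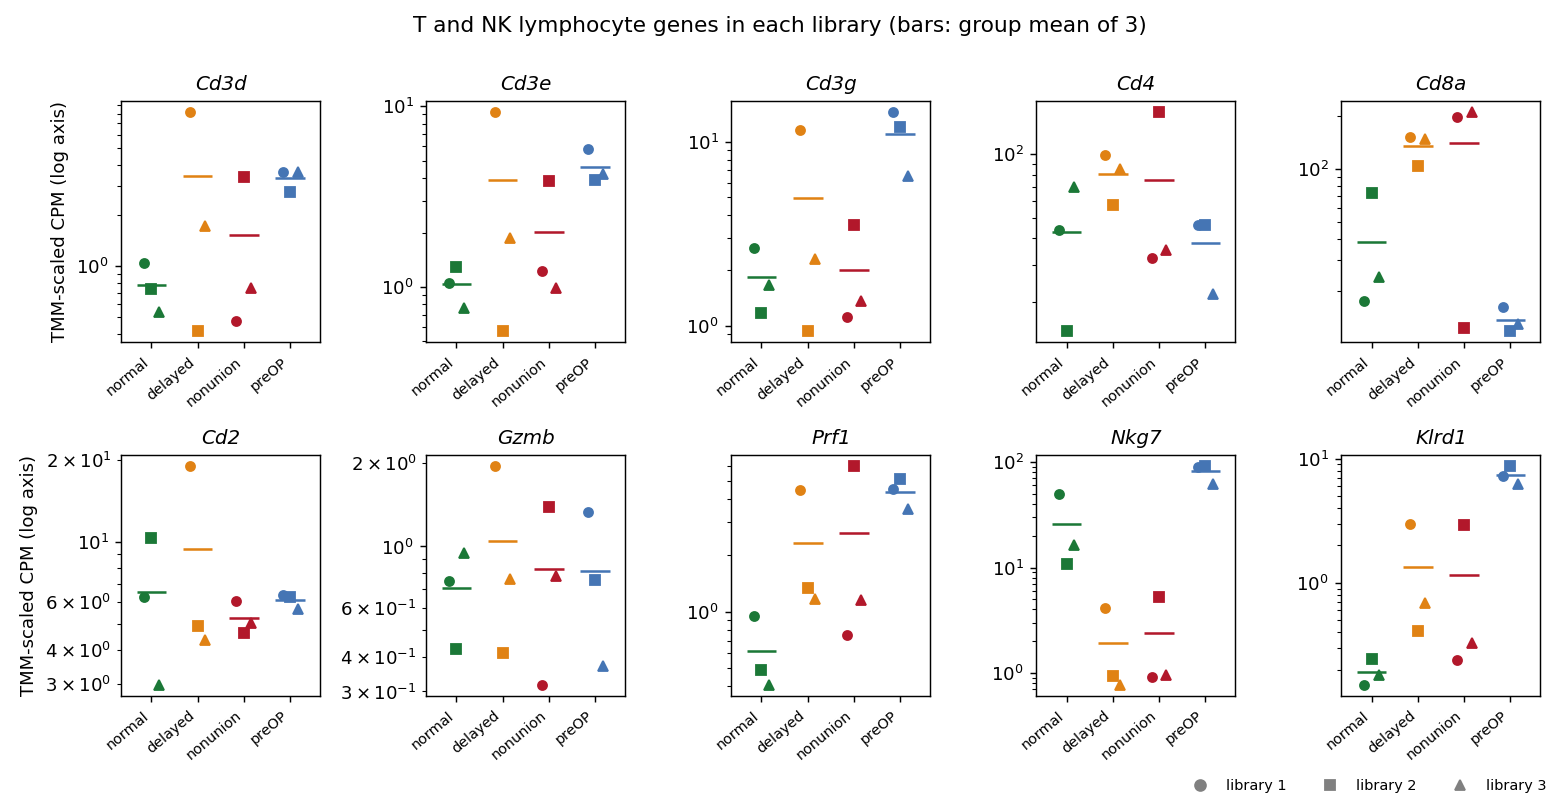
Level of each of the 10 genes in each library, in TMM-scaled CPM on a log axis, with symbols for libraries 1 to 3 of a group and a bar for the group mean of 3. Delayed 1 and nonunion 2 are the high points of their groups for the CD3 chains, Prf1 and Klrd1, while Cd8a is high in 5 of the 6 delayed and nonunion libraries and Nkg7 is high in preOP and normal.

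Cd8a had another pattern than the CD3 chains. Its level was 17.7, 72.5 and 24.1 CPM in normal 1, 2 and 3, 152, 104 and 148 in delayed, 198, 12.3 and 211 in nonunion, and 16.3, 11.8 and 13.0 in preOP. The 3 delayed libraries lay above all normal and preOP libraries, and nonunion 1 and 3 were the highest of the 12, while nonunion 2 lay within the preOP range. Delayed 1 to 3 held 3965, 2011 and 3663 reads of Cd8a, and nonunion 2 held 80. Cd8a was higher in delayed than in preOP by 3.30 (log2, SE 0.85, edgeR adjusted p = 0.014), a 9.82-fold difference, and higher in nonunion than in preOP by 3.36 (SE 0.85, edgeR adjusted p = 0.013). The delayed call was lost without preOP 2 (3.37, edgeR adjusted p = 0.052) or preOP 3 (3.26, edgeR adjusted p = 0.058). The nonunion call was lost without preOP 2 (3.38) or preOP 3 (3.32) and with limma-voom (2.73, adjusted p = 0.060). It was also lost with limma on log2(TPM + 0.1) (2.46, adjusted p = 0.28) and log2(TPM + 1) (2.48, adjusted p = 0.24), and its value was 4.06 without nonunion 2.

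Among the hematomas Cd8a missed the threshold. Delayed exceeded normal by 1.84 (SE 0.88, edgeR adjusted p = 0.22), although the libraries did not overlap, and nonunion exceeded normal by 1.86 (SE 0.88, edgeR adjusted p = 0.27). Without delayed 2 and nonunion 2, delayed exceeded normal by 2.05 and passed (edgeR adjusted p = 0.039). The order of group means in CPM was nonunion (140 ± 111, SD, n = 3), delayed (134 ± 26.8, SD, n = 3), normal (38.1 ± 30.0, SD, n = 3) and preOP (13.7 ± 2.32, SD, n = 3), and no pair of neighbours in this order differed past the threshold.

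Set against CD3 within the same library, where the scaling of the library drops out, Cd8a was out of proportion in most hematomas. The TPM ratio of Cd8a to the mean of the 3 CD3 chains was 0.811, 0.717 and 1.14 in preOP. It was 4.57, 32.4 and 10.6 in normal, 6.59, 65.1 and 30.3 in delayed, and 93.3, 1.54 and 85.2 in nonunion. All 9 hematoma libraries lay above the 3 preOP libraries. The beta chain Cd8b did not keep the same ratio to Cd8a: their TPM ratio (Cd8a over Cd8b) was 2.50, 4.35 and 2.11 in normal, 8.31, 12.6 and 15.6 in delayed, 14.3, 3.97 and 17.0 in nonunion, and 5.35, 6.01 and 6.07 in preOP. The ratio was lower in every normal library than in every preOP library and higher in every delayed library. Cd8b itself was higher in delayed than in preOP by 2.33 (log2, SE 0.57, edgeR adjusted p = 0.012), from 2.12 ± 0.518 to 10.7 ± 4.91 CPM (SD, n = 3 each), and missed the threshold without preOP 3 (2.255, edgeR adjusted p = 0.0501) and on log2(TPM + 0.1) with limma (2.90, adjusted p = 0.055).

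**Figure D2:**
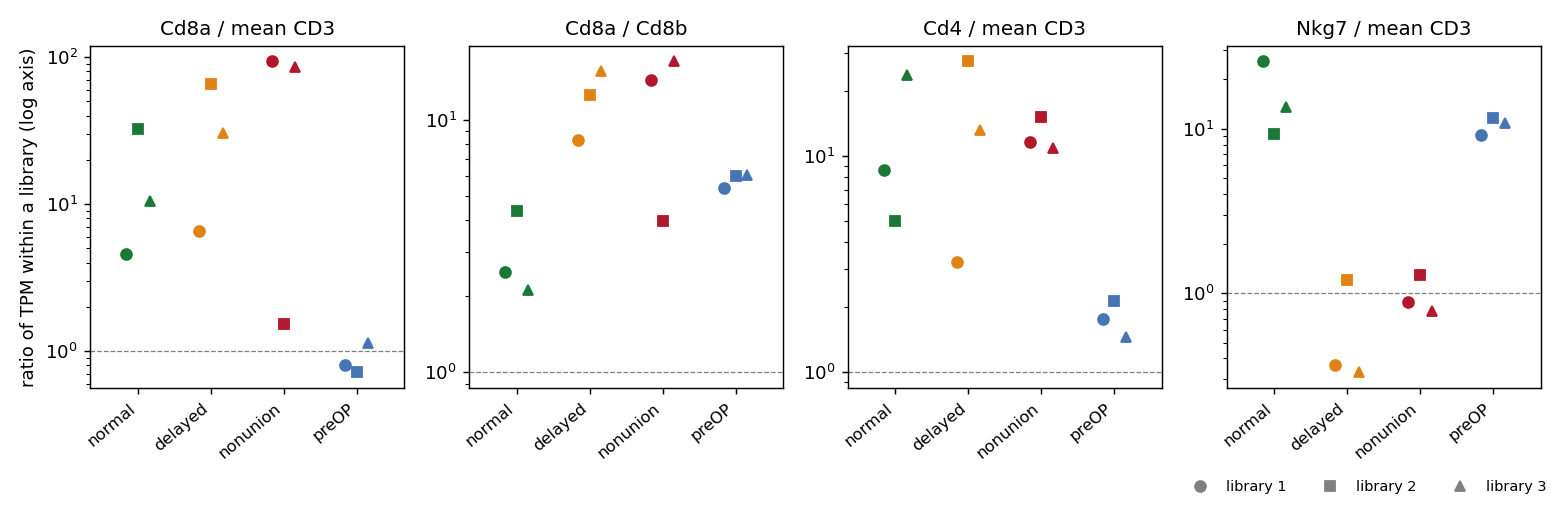
Ratio of TPM values within each library, on log axes, for Cd8a over the mean of the CD3 chains, Cd8a over Cd8b, Cd4 over the mean of the CD3 chains and Nkg7 over the mean of the CD3 chains, with a dashed line at equal levels. Cd8a and Cd4 exceed CD3 in all 9 hematomas, and Nkg7 exceeds CD3 in all normal and preOP libraries by 9.11 times or more.

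Cd4 varied widely within groups. It stood at 43.7, 14.5 and 70.3 CPM in normal, at 98.7, 57.5 and 85.0 in delayed, at 32.3, 158 and 35.4 in nonunion, and at 46.3, 46.4 and 21.8 in preOP. The 3 delayed libraries lay above the 3 preOP libraries, and all other pairs of groups overlapped in CPM. In TPM, where ribosomal RNA lowers the other genes of nonunion 2, that library stood at 24.7 beside 32.4 and 33.2 in nonunion 1 and 3. All of nonunion then lay below the 50.7 to 86.5 TPM of delayed. In CPM nonunion 2 was the highest of all libraries, so these groups were apart on the TPM scale only. The difference from preOP was 1.075 in delayed (SE 0.67, edgeR adjusted p = 0.26), 0.975 in nonunion (SE 0.67, edgeR adjusted p = 0.31) and 0.17 in normal (SE 0.66, edgeR adjusted p = 0.85). The delayed value passed without delayed 2 and nonunion 2 (1.48, edgeR adjusted p = 0.044) and with no other group in the fit (1.29, edgeR adjusted p = 0.037). Without nonunion 2 the nonunion value came to -0.02. In TPM, Cd4 exceeded the mean CD3 level by 1.46 to 2.15 times in preOP and by 3.26 to 27.4 times in the hematomas.

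Some macrophage and monocyte markers were higher in each hematoma group. Of 12 tested, 5, 7 and 6 rose in normal, delayed and nonunion against preOP, where 20.5%, 12.6% and 13.5% of all genes were called higher, and 0 fell. Cd68, Csf1r and Mrc1 rose in each. C1qa, a complement subunit made by macrophages, lay lower in normal, at 108, 112 and 98.8 CPM against 186, 189 and 143 in preOP, and was not called. The scavenger receptor Cd163 was also not called, at 25.3, 68.0 and 60.1 CPM in normal against 157, 120 and 77.6 in preOP. The summed level of the 12 was 2820 to 4893 CPM in preOP, 7433 to 8084 in normal, 3801 to 11300 in delayed and 3037 to 8462 in nonunion, with none of the 12 at 0 in any group. Lyz2, a lysozyme that neutrophils also express, gave 66.9% to 80.1% of that sum in 11 libraries and 27.6% in nonunion 2. The other 11 markers summed to 577 to 975 CPM in preOP, 1577 to 1971 in normal, 1257 to 2911 in delayed and 1648 to 2309 in nonunion. On that sum nonunion 2, the hematoma with the lowest Cd8a, held 2198 CPM, and the lowest hematoma was delayed 2, with Cd8a at 104 CPM. The part of macrophages in the Cd4 and Cd8a levels was not tested.

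Cd2, an adhesion receptor of T and NK cells that binds CD48 in the rat, did not separate the groups. Its level was 6.27, 10.3 and 2.97 CPM in normal, 19.0, 4.90 and 4.36 in delayed, 6.05, 4.62 and 5.00 in nonunion, and 6.37, 6.28 and 5.67 in preOP. Every pair of groups overlapped, delayed 1 stood alone at the top, and the fitted log2 differences ran from -0.90 (nonunion against delayed, SE 0.65) to 0.63 (delayed against preOP, SE 0.58), with edgeR adjusted p of 0.87 and 0.46. Gzmb was near the limit of detection, with 6 to 51 reads per library, and stood at 0.752, 0.428 and 0.946 CPM in normal, 1.96, 0.412 and 0.766 in delayed, 0.316, 1.39 and 0.786 in nonunion, and 1.33, 0.755 and 0.370 in preOP. Here too all groups overlapped, and the log2 differences lay between -0.48 (SE 0.76, nonunion against delayed) and 0.54 (SE 0.75, delayed against normal), with edgeR adjusted p of 0.97 and 0.68. No difference in Gzmb was detectable at this depth.

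Prf1 was lowest in the normal hematomas. It stood at 0.952, 0.490 and 0.406 CPM in normal, at 4.45, 1.34 and 1.17 in delayed, at 0.751, 6.01 and 1.16 in nonunion, and at 4.49, 5.10 and 3.51 in preOP. Normal lay below both delayed and preOP without overlap. It was lower in normal than in preOP by a log2 difference of -2.81 (SE 0.84, edgeR adjusted p = 0.019), a 7.03-fold difference. That call was lost without normal 2 (-2.68, edgeR adjusted p = 0.064), normal 3 (-2.48, edgeR adjusted p = 0.079) or preOP 2 (-2.59, edgeR adjusted p = 0.057). Delayed and nonunion exceeded normal by 1.89 and 1.94 (SE 0.91 and 0.92), with edgeR adjusted p of 0.23 and 0.27. Without delayed 1 the first came to 0.99, and without nonunion 2 the second came to 0.66. Against preOP, nonunion passed once nonunion 2 was left out (-2.03, edgeR adjusted p = 0.040), having been at -0.79 (SE 0.78, edgeR adjusted p = 0.49) with it.

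Klrd1, the CD94 chain, was all but missing from the normal hematomas and clear in preOP. Normal 1, 2 and 3 held 3, 4 and 4 reads, delayed held 77, 8 and 17, nonunion held 6, 19 and 8, and preOP held 146, 186 and 102. In CPM these were 0.150, 0.245 and 0.180 in normal, 2.96, 0.412 and 0.686 in delayed, 0.237, 2.93 and 0.331 in nonunion, and 7.20, 8.78 and 6.29 in preOP. Every hematoma lay below every preOP library, and delayed lay above normal without overlap. The log2 difference from preOP was -5.24 in normal (SE 1.09, edgeR adjusted p = 0.0034), -2.44 in delayed (SE 0.92, edgeR adjusted p = 0.071) and -2.84 in nonunion (SE 0.97, edgeR adjusted p = 0.049). The normal call held without each library of the 2 groups in turn and under the other settings tried. The nonunion call was lost without nonunion 1 (-2.23), nonunion 3 (-2.28), preOP 1 (-2.78), preOP 2 (-2.61) or preOP 3 (-2.93), and without nonunion 2 the value was -4.52 (edgeR adjusted p = 0.0034). It was also lost with DESeq2 size factors (-2.74, edgeR adjusted p = 0.058) and without ribosomal RNA and globin genes (-2.67, edgeR adjusted p = 0.059). With no other group in the fit it was lost as well (-2.80, edgeR adjusted p = 0.064). In delayed the gene passed without delayed 1 (-3.58, edgeR adjusted p = 0.027), without delayed 2 and nonunion 2 (-1.81, edgeR adjusted p = 0.022), with DESeq2 (-2.31, adjusted p = 0.034), with limma-voom (-2.89, adjusted p = 0.0089) and with limma on log2(TPM + 0.1) (-2.135, adjusted p = 0.037) and log2(TPM + 1) (-1.50, adjusted p = 0.0074). Delayed exceeded normal by 2.79 (SE 1.14, edgeR adjusted p = 0.17), and by 1.49 without delayed 1.

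Nkg7 was the most abundant of the 10 genes in TPM in all preOP libraries and in normal 1. It stood at 50.3, 10.8 and 16.2 CPM in normal, at 4.11, 0.928 and 0.766 in delayed, at 0.910, 5.24 and 0.951 in nonunion, and at 90.3, 92.6 and 61.6 in preOP. In CPM the groups fell into steps: all preOP libraries were above all normal ones, and all normal ones were above all delayed and nonunion ones, which overlapped. In TPM normal and preOP overlapped, with normal 1 at 105 above preOP 3 at 78.5. Delayed was lower than preOP by a log2 difference of -5.38 (SE 0.96, edgeR adjusted p = 0.0023), a 41.7-fold difference, and nonunion by -5.245 (SE 0.97, edgeR adjusted p = 0.0029), a 37.9-fold difference. Both calls held under every setting and without any 1 library, with values of -6.45 without delayed 1 and -6.29 without nonunion 2. The steps on either side of normal missed the threshold: -1.66 for normal against preOP (SE 0.81, edgeR adjusted p = 0.12), -3.75 for delayed against normal (SE 1.02, edgeR adjusted p = 0.057) and -3.63 for nonunion against normal (SE 1.03, edgeR adjusted p = 0.097). Delayed against normal passed with DESeq2 (-3.67, adjusted p = 0.0010), limma-voom (-3.83, adjusted p = 0.036) and when all 12 libraries shared a fit (-3.72, edgeR adjusted p = 0.020). Without normal 1 it was -2.81 (edgeR adjusted p = 0.17), and normal against preOP was then -2.59 and passed (edgeR adjusted p = 0.046).

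Nkg7 and Cd8a lay at opposite ends of the library order, and their start windows are shown for comparison with those of CD3. The Nkg7 window is chr1:102981247-102981546 and the Cd8a window is chr4:104923866-104924165, both on the plus strand of GRCr8, with capitals marking the same 4 motifs.
Nkg7: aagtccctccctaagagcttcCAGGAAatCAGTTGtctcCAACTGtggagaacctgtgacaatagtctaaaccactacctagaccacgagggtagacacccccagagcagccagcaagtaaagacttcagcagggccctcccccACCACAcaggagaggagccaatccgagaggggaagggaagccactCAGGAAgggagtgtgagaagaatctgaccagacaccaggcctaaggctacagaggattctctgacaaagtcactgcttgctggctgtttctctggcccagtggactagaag
Cd8a: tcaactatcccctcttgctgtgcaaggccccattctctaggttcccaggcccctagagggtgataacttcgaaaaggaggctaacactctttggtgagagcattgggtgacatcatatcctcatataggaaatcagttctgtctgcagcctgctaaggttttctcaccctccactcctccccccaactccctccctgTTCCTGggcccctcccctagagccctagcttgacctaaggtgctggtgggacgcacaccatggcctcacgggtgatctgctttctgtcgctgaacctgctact
The Nkg7 window held 2 ETS matches, 1 RUNX match and 2 E-box matches, and the Cd8a window held 1 ETS match. Across the 12 libraries the log2 CPM of Nkg7 and Cd8a had a Pearson correlation of -0.86, and across the 9 hematomas -0.77. These points share libraries and groups, and the values are a description.

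Summed neutrophil markers were also highest in the preOP libraries and normal 1. Of 11 neutrophil markers tested, 8 fell in delayed, 8 fell in nonunion and 2 fell in normal against preOP, where 15.6%, 14.9% and 22.1% of all genes were called lower, and 0 rose. Their summed level was 9786 to 12510 CPM in preOP, 10880, 1671 and 2053 in normal 1, 2 and 3, 81.6 to 1031 in delayed and 68.1 to 656 in nonunion, with none of the 11 at 0 in any group. Normal 1, the hematoma with the most Nkg7 by far, was also the hematoma with the most neutrophil transcript. The TPM ratio of Nkg7 to the mean of the CD3 chains was 25.7, 9.33 and 13.6 in normal and 9.11, 11.6 and 10.8 in preOP, against 0.329 to 1.29 in delayed and nonunion. The part of neutrophils and their precursors in the Nkg7 level was not tested.

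**Figure D3:**
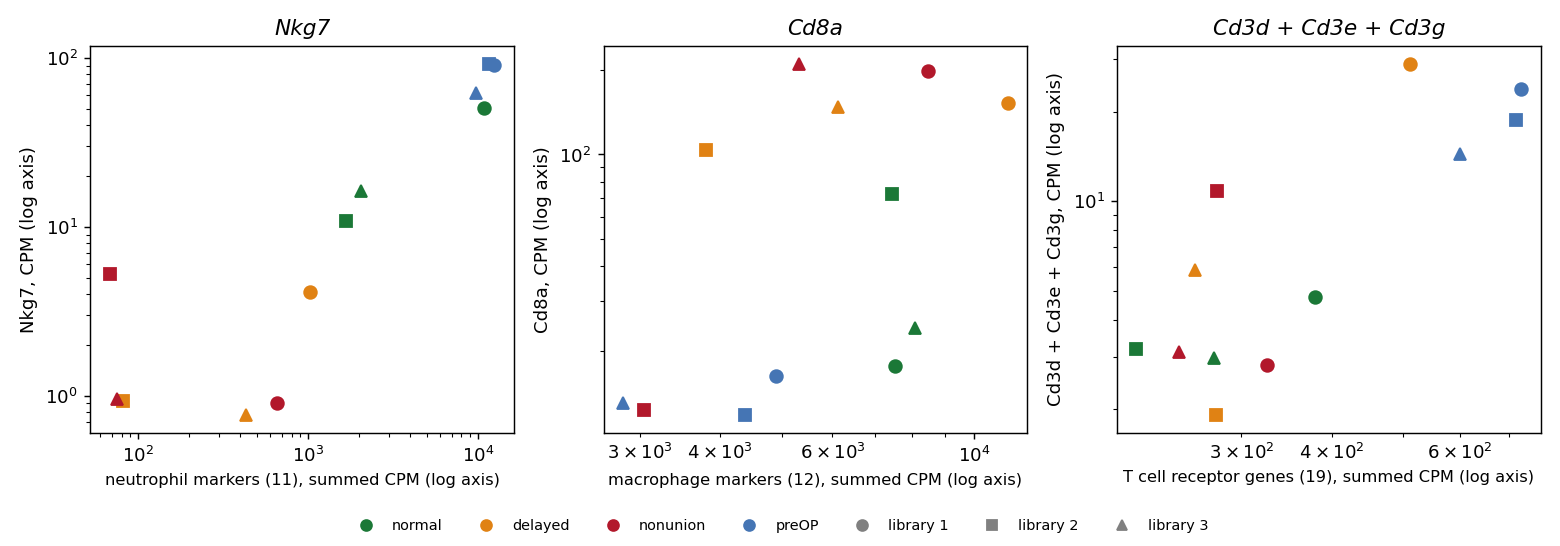
Each library's level of Nkg7 against its summed neutrophil markers, of Cd8a against its summed macrophage markers, and of the summed CD3 chains against its summed T cell receptor genes, in CPM on log axes, with colours for groups and symbols for libraries 1 to 3. Normal 1 lies among the preOP libraries in the Nkg7 panel, Cd8a runs from 17.7 to 198 CPM among the 5 hematomas with macrophage sums of 7433 CPM or more, and the 3 preOP libraries lie highest for the T cell receptor genes.

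Counted over the comparisons, few of the 10 genes passed. In delayed against normal 0 of 10 were called, where 7.13% of all genes tested were, and in nonunion against normal 0 of 10, where 2.37% were. At an unadjusted p under 0.05 with edgeR, 2 of the 10 passed in the first (Nkg7 and Klrd1) and 1 in the second (Nkg7). The share of all genes under that unadjusted p was not counted for these comparisons, so the counts have no background beside them. Delayed 1 to 3 did not overlap normal for 4 of the 10, where 36.5% of all genes tested did not. Of these, Cd8a, Prf1 and Klrd1 were above normal and Nkg7 was below. For nonunion and normal, 1 of the 10 did not overlap, against 29.6% of all genes. The median log2 difference of the 10 genes was 1.63 for delayed against normal and 0.75 for nonunion against normal, with 0.02 and -0.03 over all genes tested. Both medians lean on single libraries. Without delayed 1, Cd3g, Cd2 and Gzmb turned to -0.195, -0.495 and -0.29, and Cd3d, Cd3e, Prf1 and Klrd1 came to 0.48, 0.24, 0.99 and 1.49. Without nonunion 2, Cd3d and Cd4 turned to -0.31 and -0.311, and Cd3e, Prf1 and Klrd1 came to 0.136, 0.66 and 0.595, while Cd8a came to 2.45.

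Nonunion against delayed, the 2 larger defects, gave 0 of 10 called, where 0.0% of all genes were. At an unadjusted p under 0.05, 881 genes and 0 of the 10 passed with edgeR, while DESeq2 called 183 genes and limma-voom called 0. The median log2 difference of the 10 genes was -0.46, against -0.05 over all genes, and all 10 overlapped, where 8.91% of all genes did not. The largest differences were Cd3g at -1.415 (SE 0.91) and Cd3d at -1.33 (SE 1.07), which came to 0.19 and 0.335 without delayed 1.

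Against preOP, where the tissues differ, many genes of all kinds passed. In normal 3 of 10 were called, all lower (Cd3g, Prf1 and Klrd1), where 42.6% of all genes were called in either direction. In delayed 2 of 10 were called, Cd8a higher and Nkg7 lower, where 28.2% were. In nonunion 4 of 10 were called, Cd8a higher and Cd3g, Klrd1 and Nkg7 lower, where 28.4% were. Libraries did not overlap preOP for 7 of the 10 genes in normal, where 66.9% of all genes did not, for 4 in delayed (52.0%) and for 4 in nonunion (49.1%). With the 3 hematoma groups averaged at equal weight, 4 of 10 were called, where 40.6% were: Cd8a was higher by 2.71 (SE 0.76, edgeR adjusted p = 0.015), and Cd3g (-2.09, SE 0.60, edgeR adjusted p = 0.017), Klrd1 (-3.51, SE 0.67, edgeR adjusted p = 0.0019) and Nkg7 (-4.10, SE 0.60, edgeR adjusted p = 0.00036) were lower. The Cd3g call was lost without preOP 1 (-1.71) or preOP 2 (-1.88), and the Cd8a call was lost without preOP 2 (2.74) or preOP 3 (2.67). With limma on log2(TPM + 0.1) both were lost (-2.01, adjusted p = 0.053, and 2.675, adjusted p = 0.078). Cd8a was also lost on log2(TPM + 1) (2.62, limma adjusted p = 0.070). Each of these counts is near the background share of its comparison. The 4 comparisons share the preOP libraries.

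**Figure D4:**
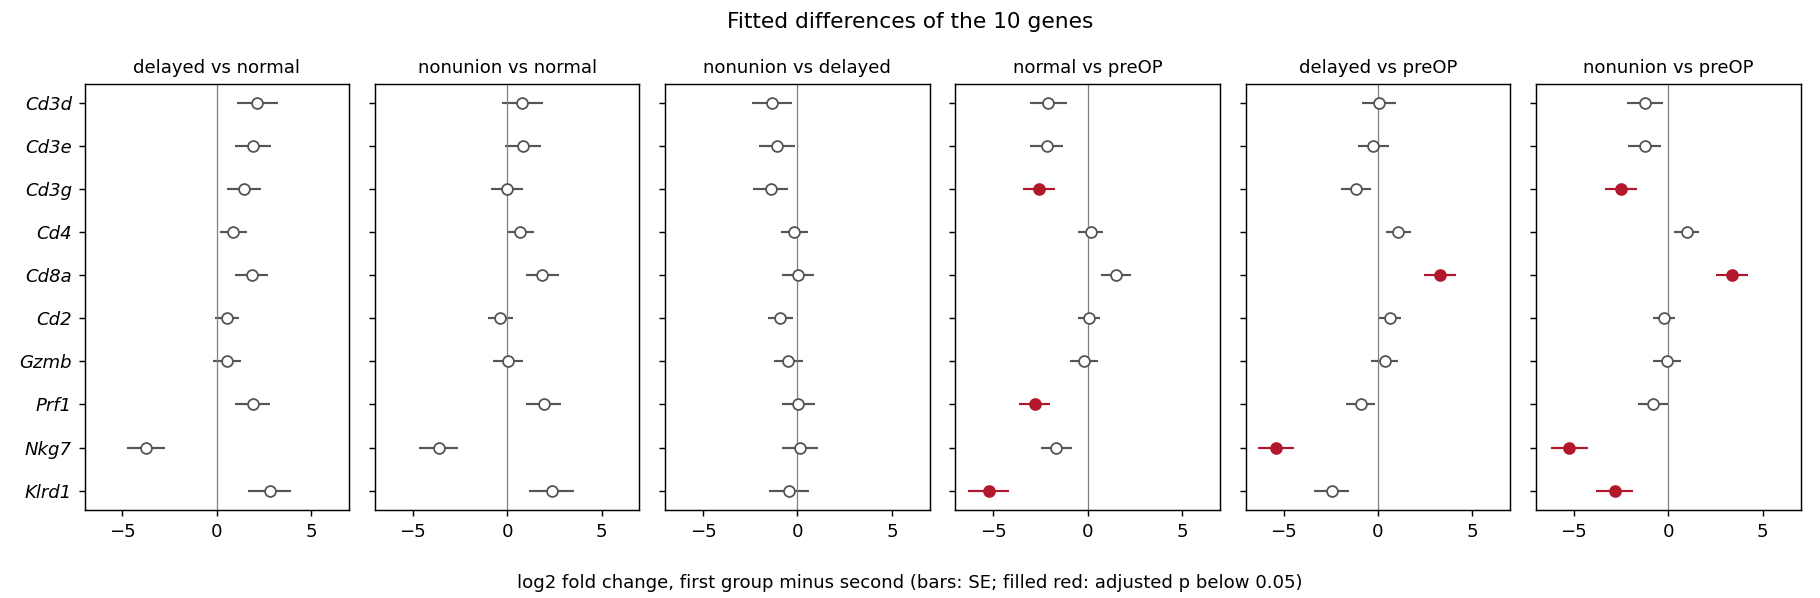
Fitted log2 fold change of each of the 10 genes in 6 comparisons, first group minus second, with bars for the SE and filled red points for an adjusted p below 0.05. No point is filled among the hematomas, and against preOP the filled points are Cd8a to the right and Cd3g, Prf1, Nkg7 and Klrd1 to the left.

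Of the wider set of T cell receptor signalling genes, many were lower than preOP in normal and in nonunion, and few in delayed. Of 19 tested, 10 fell in normal, 2 in delayed and 9 in nonunion, where 22.1%, 15.6% and 14.9% of all genes were called lower, and 1 rose in each (Cd8b), with median log2 differences of -2.43, -0.88 and -2.015 against -0.09, -0.03 and -0.002 over all genes. Sla2, an adaptor that dampens receptor signalling, was at 13.2 ± 1.72 CPM in preOP (SD, n = 3) and 0.891 ± 0.555 over the 9 hematomas, and fell by 3.92 in the mean hematoma (log2, SE 0.52, edgeR adjusted p = 0.00020). Sit1, an inhibitory adaptor, fell by 3.27 (SE 0.72) and Prkcq, the theta protein kinase C, by 2.75 (SE 0.53). Prkcq is also a skeletal muscle gene, and its highest hematoma level, 74.3 CPM in delayed 2, came with summed muscle markers of 53660 CPM against 177 to 5962 CPM in the other hematomas. In preOP, Prkcq stood at 89.0, 91.5 and 70.1 CPM, and the muscle markers summed to 5032 to 10860 CPM. The part of muscle in the Prkcq level was not tested.

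**Figure D5:**
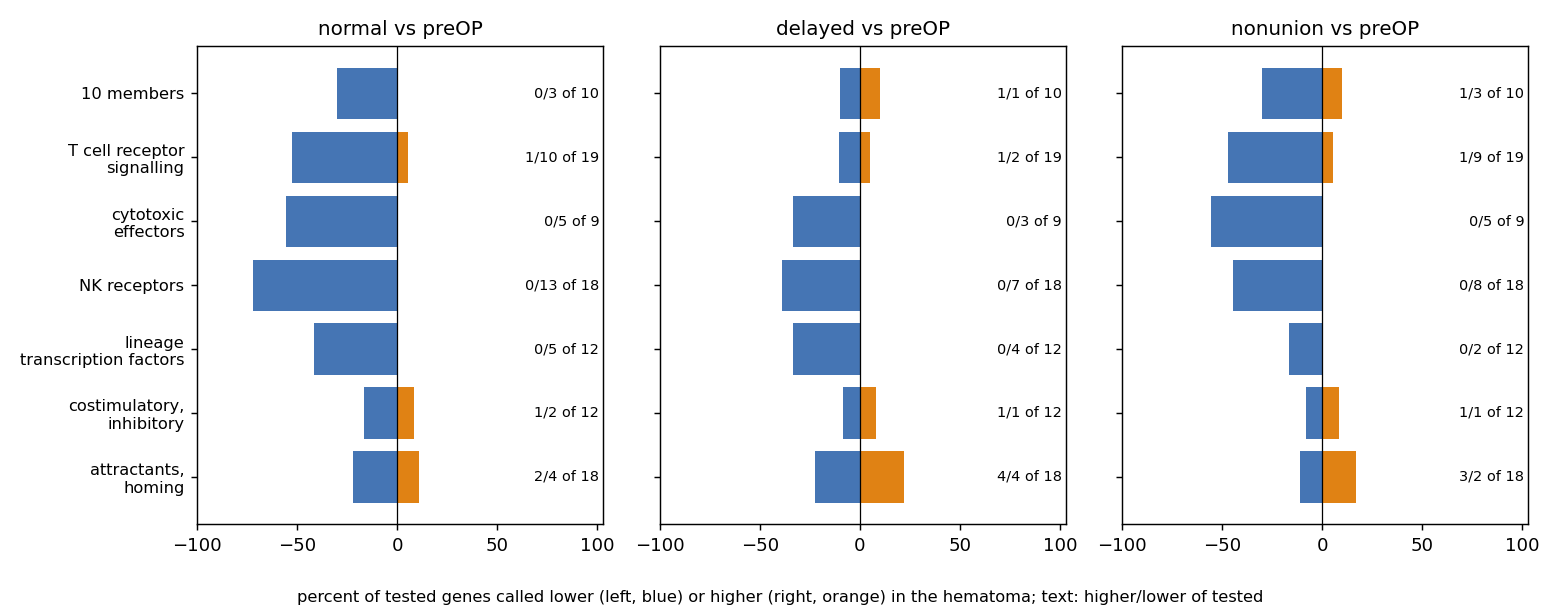
Percent of tested genes in each list that were called lower (blue, to the left) or higher (orange, to the right) in each hematoma group against preOP, with the counts higher/lower of tested at the right. NK receptors were called lower in 13, 7 and 8 of 18 in normal, delayed and nonunion, where 22.1%, 15.6% and 14.9% of all genes were. Of the lists shown, attractant and homing genes had the most genes called higher (2, 4 and 3 of 18), where 20.5%, 12.6% and 13.5% of all genes were.

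NK receptors and their adaptors were lower most widely in normal. Of 18 tested, 13 fell in normal, 7 in delayed and 8 in nonunion, against 22.1%, 15.6% and 14.9% of all genes, and 0 rose, with median log2 differences of -3.61, -2.13 and -2.33. Il2rb, the beta chain of the IL-2 and IL-15 receptors, was at 19.5, 18.5 and 17.0 CPM in preOP and at 2.55 ± 1.98 CPM in delayed (SD, n = 3), a fall of 2.84 (SE 0.62, edgeR adjusted p = 0.0065) that came to -3.51 without delayed 1 and -2.25 without delayed 2. Klrb1c, a receptor of the NKR-P1 family, fell by 3.52 in the mean hematoma (SE 0.795, edgeR adjusted p = 0.0048), though reads can be split among the near-identical genes of this family. Klrc1 and Klrg1 had 0 reads in all normal libraries, where 3 reads would be 0.135 to 0.184 CPM. Klrb1 had 0 reads in all 9 hematomas and 2, 1 and 0 in preOP, so no difference was detectable. Cd226 fell by 5.795 (SE 0.75, edgeR adjusted p = 0.00018), from 77.8 ± 16.6 CPM in preOP (SD, n = 3). CD226 is carried by platelets and megakaryocytes as well as by T and NK cells, and normal 1, at 16.9 CPM, was the highest hematoma.

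Some granule and effector genes other than the 3 above were lower as well. Of 9 tested, 5 fell in normal, 3 in delayed and 5 in nonunion, where 22.1%, 15.6% and 14.9% of all genes fell, 0 rose, and 4, 6 and 4 did not pass, with median log2 differences of -2.25, -1.83 and -2.56. The lymphocyte granzymes Gzmm and Gzmk fell by 3.24 (SE 0.46, edgeR adjusted p = 0.00030) and 2.74 (SE 0.68, edgeR adjusted p = 0.0079) in the mean hematoma. Srgn, the proteoglycan core of granules in many leukocytes, fell by 2.56 (SE 0.54, edgeR adjusted p = 0.0034), and was 812 CPM in normal 1 against 43.4 to 298 in the other hematomas. Ifng, the interferon of activated T and NK cells, had 0 reads in all normal and preOP libraries, 1 read in delayed 3 and 1 read in nonunion 3.

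Of 12 T and NK lineage transcription factors tested, 5 fell in normal, 4 in delayed and 2 in nonunion, and 0 rose. Over all genes 22.1%, 15.6% and 14.9% fell, and the 2 in nonunion are near that share. Tbx21 (T-bet), the factor of type 1 T cells and NK cells, fell by 3.08 in the mean hematoma (SE 0.52, edgeR adjusted p = 0.00085), from 6.49 ± 1.92 CPM in preOP (SD, n = 3). Txk, a TEC family kinase kept in this list, fell by 3.05 (SE 0.53), and Satb1, a chromatin organiser of thymocytes, by 2.26 (SE 0.54). Foxp3, the factor of regulatory T cells, held 5 to 15 reads per hematoma library and 15 to 27 in preOP.

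Few costimulatory and inhibitory genes passed. Of 12 tested, 1 rose in each hematoma group against preOP (Havcr2 in normal and delayed, Pdcd1 in nonunion), and 2, 1 and 1 fell in normal, delayed and nonunion. Of all genes, 20.5%, 12.6% and 13.5% rose and 22.1%, 15.6% and 14.9% fell, so the list held no more calls than genes at large. Havcr2 (TIM-3), an inhibitory receptor carried by T cells and by myeloid cells, rose by 3.31 in normal (SE 0.805, edgeR adjusted p = 0.0075), and stood at 15.1, 9.98 and 10.7 CPM in normal against 1.68, 1.46 and 0.431 in preOP. Cd274 (PD-L1), the ligand of PD-1, was at 1.66 ± 1.35 CPM in normal and 11.4 ± 5.94 CPM in delayed (SD, n = 3 each), a difference of 2.72 (SE 0.89) that missed the threshold (edgeR adjusted p = 0.099) and passed with DESeq2 (2.83, adjusted p = 0.0070).

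Genes that attract or sustain lymphocytes gave calls in both directions. Of 18 tested, 2, 4 and 3 rose in normal, delayed and nonunion against preOP, and 4, 4 and 2 fell. The same shares over all genes were 20.5%, 12.6% and 13.5% higher and 22.1%, 15.6% and 14.9% lower, so the counts lie near or under them except in delayed, where 4 of 18 in each direction are above. Cxcl16, a chemokine made by myeloid cells, rose by 2.30 in normal (SE 0.45, edgeR adjusted p = 0.0023), from 11.4 ± 2.63 to 56.3 ± 13.3 CPM (SD, n = 3 each). The survival cytokine Il7 fell by 2.175 (SE 0.36, edgeR adjusted p = 0.00076) and the IL-2 receptor alpha chain Il2ra by 3.89 (SE 0.59, edgeR adjusted p = 0.00043) in the mean hematoma. Among the hematomas, Cxcl9, a chemokine for CXCR3-bearing T and NK cells, was the 1 gene of these 6 lists that passed. It stood at 3.16, 1.59 and 2.21 CPM in normal, 4.72, 23.9 and 12.6 in delayed, and 11.8, 69.5 and 46.3 in nonunion, and rose in nonunion against normal by 4.10 (SE 0.78, edgeR adjusted p = 0.033). That call was lost without normal 1 (4.40), normal 2 (3.98), normal 3 (4.08), nonunion 2 (3.68) or nonunion 3 (4.02), with limma-voom (adjusted p = 0.091) and with the replicate number as a block (3.66, edgeR adjusted p = 0.074).

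Markers of other blood cells were also high in preOP. All 10 mast cell and basophil markers tested fell in normal and delayed and 9 in nonunion, where 22.1%, 15.6% and 14.9% of all genes fell, from a summed 817 to 1510 CPM in preOP to 6.74 to 90.8 CPM in the hematomas. Of 8 B cell markers, 7, 7 and 6 fell, from 249 to 403 CPM to 29.7 to 88.4 CPM. None of these markers was at 0 in any group. Their part in the levels of the T and NK genes was not tested.

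The order of the 10 genes within a library, in TPM, differed between groups. Cd8a led in normal 2, in delayed 1 to 3 and in nonunion 1 and 3, Cd4 led in normal 3 and nonunion 2, and Nkg7 led in normal 1 and preOP 1 to 3. The lowest was Klrd1 in all 3 normal libraries and Gzmb in all 3 preOP libraries. Mean CD3 levels ran from 1.64 to 4.10 TPM in the hematomas other than delayed 1 and 3, which held 26.4 and 6.54 TPM, and from 7.25 to 16.1 TPM in preOP. The 1.64 TPM was that of nonunion 2, lowered on this scale by its ribosomal RNA. In CPM its summed CD3 chains (10.8) were exceeded among the hematomas only by those of delayed 1 (29.0).

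Several T cell genes had a pattern like that of the CD3 chains. The comparison took 11274 genes outside the 10, each with a mean of at least 1 CPM. The 7 whose log2 CPM had the highest Pearson correlation with the mean of the 3 CD3 chains over the 12 libraries were Ctsw (0.968), Cd69 (0.950), Arl5c (0.947), Lck (0.947), Cd27 (0.945), Zfp36l2 (0.940) and Gfra3 (0.936). Ctsw is a protease of cytotoxic cells, Lck is the kinase that phosphorylates CD3, and Cd27 and Cd69 are lymphocyte surface proteins. Over the 8 hematomas without delayed 1 the values for Ctsw and Lck were 0.887 and 0.871. Among the 10 genes, Cd3d and Cd3e had a correlation of 0.97 and Prf1 and Klrd1 one of 0.92, while Cd3d and Cd8a had one of -0.34.

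The same measure was taken for Nkg7, Cd8a, Cd4 and Klrd1 after their values had been seen. For Nkg7 the leading genes were Ctsg (0.981), Np4 (0.976), RatNP-3b (0.971), Foxc1 (0.969), Defa5 (0.969), Prtn3 (0.967), Epx (0.959) and Grem1 (0.959), of which Ctsg, Np4, RatNP-3b and Prtn3 encode granule proteins of neutrophils and their precursors and Epx one of eosinophils. The CD3 chains and Gzmb were left out of the genes compared, so their absence from this list carries no information. The granzyme Gzmk was compared and was not among the leading genes of Nkg7. For Cd8a the leading genes were Nefh (0.962), Il18bp (0.956), Psca (0.949), Mfsd11 (0.936), Lilrb4 (0.923), Atp6v1h (0.919), Ccl4 (0.919) and Ptcd3 (0.914). Those of Klrd1 were Arhgef3 (0.967), Stab2 (0.964), Tnfrsf14 (0.963), Il2rb (0.962), Gzmk (0.962), Bhlha15 (0.959), Slc4a11 (0.958) and Inhca (0.953). Those of Cd4 were Bmf (0.923), Prkd3 (0.913), Kbtbd11 (0.907), Osbpl11 (0.903), Tgoln2 (0.896), Galnt11 (0.894), Kidins220 (0.89) and Pde3b (0.87). The correlations of Cd3d, Cd3e and Cd3g were -0.34, -0.315 and -0.51 with Cd8a and 0.385, 0.40 and 0.65 with Nkg7. All these values come from libraries that share groups and depth, and are a description.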

How the data were processed

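Per the submitters' processing notes, bcl2fastq 1.8.4, FastQC, Trimmomatic and Salmon were used, on build rn6. Per the file headers, the deposited values are estimated counts of reads per transcript, the effective length of each transcript in bases, and TPM (transcripts per 1e6, corrected for that length). Estimated counts were rounded and summed by RefSeq symbol, which paired 17367 of 18321 transcripts, and the other 954 stayed single features. The deposited TPM were summed by symbol for levels between genes.

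Genes were tested in edgeR 4.0.16 (R 4.3.3): filterByExpr by group, TMM scaling, then the quasi-likelihood F-test. The 9 hematoma libraries were fitted together (12474 genes, 6 residual degrees of freedom), and all 12 for comparisons with preOP (12846 genes, 8 degrees of freedom). Calls have a Benjamini-Hochberg adjusted p below 0.05 over all genes tested, two-sided. The SE is the log2 fold change over the root of F. Errors marked SD are over 3 libraries, or over the 9 hematomas where said. The p-values measure the spread between libraries, which may be technical. The 0-read floor is 3 reads per library and covers counting error only.

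Genes outside the 10 were named by a rule: per comparison and list, up to 4 called genes of at least 1 CPM with the largest changes, or up to 2 abundant ones. The report prints part of them, picked after their values were seen, and Foxp3, Ifng, C1qa, Cd163, Lyz2 and genes at 0 were also picked then. Members, lists and the rule were chosen with earlier results of these data known. Alternatives used DESeq2 1.42.0, limma 3.58.1 and other scalings, filters and sets of libraries. The fit was tested on simulated data. Pairs of libraries with identical counts numbered 0.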

Additional observations from a re-analysis of the deposited data

How the results depend on the processing

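Counts of the 10 genes called moved as follows. In delayed against normal, 0 became 5 without delayed 2 and nonunion 2, where the share of all genes called rose from 7.13% to 16.4%, and 1 (Nkg7) with all 12 libraries in the fit (14.2% of all genes), DESeq2 (16.3%), limma-voom (8.87%), log2(TPM + 0.1) or log2(TPM + 1). In nonunion against normal, 0 became 1 (Nkg7) under these settings other than limma-voom. There the share of all genes called rose from 2.37% to 3.4% without delayed 2 and nonunion 2, 7.72% with all 12 libraries and 10.5% with DESeq2. Without delayed 2 and nonunion 2, normal, delayed, nonunion and the mean hematoma against preOP gave 6, 4, 7 and 7, from 3, 2, 4 and 4, while the shares of all genes rose to 58.1%, 41.6%, 41.7% and 55.9% from 42.6%, 28.2%, 28.4% and 40.6%. With no other group in the fit, normal against preOP gave 7, where 56.5% of all genes were called. Nonunion against preOP gave 2 with DESeq2 size factors, without ribosomal RNA and globin genes, and on either TPM scale, and the mean hematoma gave 2 on log2(TPM + 0.1). Leaving out each library in turn gave 0 to 0 in the 3 comparisons among hematomas, and against preOP 2 to 6 in the mean hematoma, 1 to 4 in normal and in delayed, and 1 to 5 in nonunion. Shares of all genes moved too. Without normal 1, 1.64% were called in delayed and 0.284% in nonunion against normal. Without nonunion 2, 32.4% were called in nonunion against preOP. Where no share stands beside a count, here or for the replicate block below, a change in the 10 genes cannot be told from one in all genes.

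The replicate numbers showed no clear pairing of the libraries. Over 18 pairs with the same number in 2 groups, the correlation of deviations ran from -0.182 to 0.187, and 4 pairs were over 0.1. For pairs with other numbers it ran from -0.355 to 0.352. These ranges cannot exclude libraries from the same animal, such as preOP and nonunion, which both come from operations on 5.0 mm defects. With the replicate block, the counts were 0, 0 and 0 among hematomas and 3, 2, 3 and 4 against preOP. Of 1268 values of the 10 genes under alternatives, 1181 kept their side of the threshold, 41 lost a call and 46 gained one. None reversed a call, and 93 changed sign with neither value called. Of 2226 values of the other genes followed, 205 lost a call and 5 gained one. Folds on log2(TPM + 1) understate changes of genes near 0. CD3, Gzmb, Prf1 and Klrd1 rest on as few as 3 to 31 reads in some libraries, which limits what could be detected.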
